A study of Mus musculus with 11 samples.

Results

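Open chromatin was compared between 2 mouse embryonic stem cell lines on the DBA/2J (D2) background, one of which carries C57BL/6J (B6) DNA in an interval of chromosome 13. The comparison used all libraries labelled D2 or D2-13B6, which were 6 of the 11 in the series, and all 246840 regions that could be tested of the 248336 in the deposited table. The D2 group was 3 libraries of the line D2 5-5, of strain and genotype DBA/2J. The D2-13B6 group was 3 libraries of the line XE 2-4, of the congenic strain D2.B6-(rs29224292-rs13469455)/Bakr, in which the interval between both markers comes from B6 and the rest of the genome from D2. The series design text names another marker for one end of this interval, so its exact extent is not settled by the labels. Both lines grew in medium with 15% serum, LIF and inhibitors of MEK (PD0325901) and GSK3 (CHIR99021). Each genotype was represented by 1 cell line, and the labels call its libraries technical replicates. Tests below therefore measure the spread between libraries, and every difference is one between 2 lines, in which the interval and anything else that separates the lines cannot be told apart. The reciprocal pair, 3 libraries of B6 (line B6 5-1) and 2 of B6-13D2 (line QJ 6-1, strain B6.D2-(rs30079041-rs51756099)/Bakr, which carries a D2 interval of chromosome 13 on B6), shares no library with this comparison. Its interval is labelled with other markers than that of D2-13B6. It is used where a difference between both pairs of lines was tested. Chromosomes 11 and 13 were kept apart from the other 17 autosomes, because each was shifted as a whole.

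ATAC-seq marks DNA that the Tn5 transposase can reach, chiefly promoters, enhancers and insulators. In embryonic stem cells, the factors POU5F1, SOX2, NANOG and ESRRB hold many enhancers open, and inhibition of MEK together with LIF keeps the cells in the naive state. AP-1 is a family of leucine zipper dimers of FOS, JUN, ATF and MAF proteins. Dimers of FOS and JUN bind the palindrome TGANTCA, in most cases with C or G in the middle. AP-1 acts downstream of growth factor and stress signals and opens enhancers in many differentiated cells, fibroblasts among them. Chromosome 13 also carries a cluster of genes for KRAB zinc finger proteins, which recruit heterochromatin to repeats and differ between mouse strains.

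The 5 sequences below show the AP-1 motif, with a larger share among regions higher in D2-13B6 than among all, and the POU octamer, with a slightly larger share among lower regions than among all. The first 3 are the central 300 bp of regions that were higher in D2-13B6, in introns of Dock3, Mbnl2 and Zhx2, with TGANTCA matches in capitals. The next 2 are from regions lower in D2-13B6 near Klf5 and near Sox2, with the POU octamer ATTTGCAT in capitals. All are RefSeq GRCm38.p6 sequence of the plus strand.
Dock3, chr9:106935056-106935355: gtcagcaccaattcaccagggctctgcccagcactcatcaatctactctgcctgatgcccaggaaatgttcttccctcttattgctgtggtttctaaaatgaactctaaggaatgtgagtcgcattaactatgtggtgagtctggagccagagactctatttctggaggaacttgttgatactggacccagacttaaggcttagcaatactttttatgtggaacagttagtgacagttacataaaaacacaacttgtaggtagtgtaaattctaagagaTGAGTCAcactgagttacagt
Mbnl2, chr14:120292803-120293102: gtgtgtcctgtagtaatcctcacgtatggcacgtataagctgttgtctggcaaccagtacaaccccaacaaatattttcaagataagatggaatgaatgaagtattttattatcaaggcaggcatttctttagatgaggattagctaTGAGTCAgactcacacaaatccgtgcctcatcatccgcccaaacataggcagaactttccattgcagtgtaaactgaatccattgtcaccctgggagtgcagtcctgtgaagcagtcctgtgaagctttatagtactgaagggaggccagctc
Zhx2, chr15:57749508-57749807: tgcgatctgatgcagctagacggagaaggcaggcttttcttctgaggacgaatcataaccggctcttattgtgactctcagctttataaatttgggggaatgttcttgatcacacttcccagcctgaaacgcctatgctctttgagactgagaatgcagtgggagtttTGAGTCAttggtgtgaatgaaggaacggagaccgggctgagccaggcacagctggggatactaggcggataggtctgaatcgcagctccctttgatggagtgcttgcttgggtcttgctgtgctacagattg
Klf5, chr14:99340055-99340354: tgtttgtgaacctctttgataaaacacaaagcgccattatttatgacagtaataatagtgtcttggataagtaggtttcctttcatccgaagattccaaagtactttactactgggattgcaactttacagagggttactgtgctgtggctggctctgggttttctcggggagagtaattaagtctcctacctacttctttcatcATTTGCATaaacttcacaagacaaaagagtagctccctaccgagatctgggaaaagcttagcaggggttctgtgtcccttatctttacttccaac
Sox2, chr3:34668295-34668594: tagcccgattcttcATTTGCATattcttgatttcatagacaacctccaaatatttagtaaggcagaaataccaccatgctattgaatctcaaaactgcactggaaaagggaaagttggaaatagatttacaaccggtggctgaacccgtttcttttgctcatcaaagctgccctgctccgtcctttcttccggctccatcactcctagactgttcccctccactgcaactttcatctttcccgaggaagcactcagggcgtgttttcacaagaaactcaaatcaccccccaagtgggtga
The AP-1 match starts at base 280 of the Dock3 window, 148 of the Mbnl2 window and 169 of the Zhx2 window. The octamer starts at base 206 of the Klf5 window and base 15 of the Sox2 window.

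Total counts in regions were 34945034 to 39770267 in the D2 libraries and 29172484 to 43042955 in the D2-13B6 libraries. TMM factors, which rescale each library, were 0.969 to 1.01 in D2. In D2-13B6 they were 0.894, 0.769 and 0.997 for replicates 1 to 3, so that replicate 3 lay in the D2 range and replicates 1 and 2 below it. Over the other autosomes, Pearson's r of log2 CPM across 212338 regions was 0.955 to 0.964 within D2, 0.948 to 0.964 within D2-13B6 and 0.900 to 0.934 between the lines. Pou5f1, a stem cell gene, had a promoter region above the median promoter level in both lines, though lower in D2-13B6. A single promoter does not settle the state of the cells. Promoter regions of Pou5f1 were at 49.97 to 62.5 normalised CPM in D2 and 31.2 to 37.6 in D2-13B6, where the median promoter region of a protein-coding gene had 20.3. Normalised CPM are counts scaled to a common library total after TMM.

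By edgeR's quasi-likelihood test, 58591 of the 246840 regions (23.7%) had a Benjamini-Hochberg adjusted p under 0.05 and are termed called. On the other autosomes, 31850 regions (15%) were higher in D2-13B6 and 17087 (8.05%) were lower. The median log2 fold change, always D2-13B6 minus D2, was 0.99 among the higher and -0.72 among the lower regions, and 15678 against 2200 changed at least 2-fold. In 92.5% of these calls the 3 libraries of one line all lay beyond the 3 of the other. The same separation held for 18.1% of all tested regions upward and 16% downward, called or not. Of the calls, 65.1% were higher with TMM (95% Wilson interval 64.7 to 65.5, counting error only), 75.27% with the size factors of DESeq2 and 42.58% with total counts. Total counts moved the median of all regions on these autosomes by -0.17, from -0.05, so which direction holds the majority of calls depends on the scaling.

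Regions that gained and regions that lost accessibility were of different kinds. Higher regions were narrow, with a median width of 481 bp against 551 bp for all tested regions on the other autosomes, and lower regions were wide, with a median of 989 bp. Of the narrowest regions, 107 to 284 bp wide, 19.2% were higher and 2.19% lower, whereas of the widest, 1472 to 12667 bp wide, 10.8% were higher and 19.8% lower. Soft-masked repeats covered a median of 10.3% of a higher region, 23.6% of a lower region and 15.6% of all. Introns held 45.9% of higher and 33.5% of lower calls, while coding exons held 7.99% and 13.98%. Promoter regions, within 1000 bp of an annotated start site, were not set apart, with 15.0% higher and 7.73% lower. Changes of at least 4-fold were few, at 95 higher (0.0447%) and 39 lower (0.0184%), and most of them lay in repeats. Of those, 57.9% and 87.2% were masked over at least 50% of their length, against 16.8% of all regions, and how reads with several mapping places were treated is not given in the sources used here.

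Of the motifs searched, AP-1 differed by the most percentage points between higher and lower regions. Each was searched on both strands of the central 300 bp of every region. TGANTCA was found in 40.9% of higher regions, 7.05% of lower regions and 13.8% of all tested regions on the other autosomes, and in 8.77% of promoter regions. Of the 29318 regions with a match, 44.4% were called higher and 4.11% lower. Their median log2 fold change was 0.46, against -0.09 for regions without a match. The palindrome with C or G in the middle, TGACTCA or TGAGTCA, was chosen after the first form had been seen and was in 33.7% of higher, 4.16% of lower and 10.1% of all regions. The form with A or T in the middle was in 10.8%, 3.00% and 4.46%.

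The share of regions called higher grew with the number of TGACTCA or TGAGTCA matches. Regions with 0, 1, 2 and at least 3 matches in the window were called higher in 11.1%, 46.8%, 82.9% and 84.6% of cases, over 190929, 19392, 1842 and 175 regions. The matches sat at the middle of the higher regions. The nearest match lay within 50 bp of the region's centre in 20.1% of higher regions, 1.43% of lower regions and 2.33% of regions not called. At 400 to 500 bp from the centre these shares were 2.51%, 2.99% and 2.73%. These spans differ in length, so the shares compare the 3 sets at each distance. Per 25-bp step beside the centre, the share was 5.77% in higher regions, 0.567% in regions not called and 0.363% in lower regions.

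**Figure D1:**
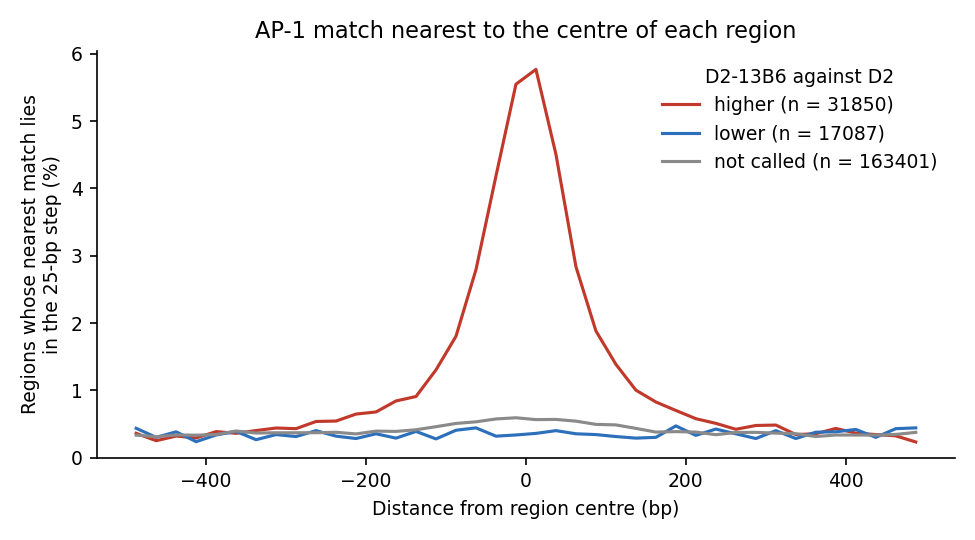
Share of regions (percent) on the other autosomes whose nearest TGACTCA or TGAGTCA match falls in each 25-bp step, against the distance of the match from the region centre in bp, for regions higher in D2-13B6, lower in D2-13B6 and not called. The line of higher regions reaches 5.77% just beside the centre, where lower regions are at 0.363% and regions not called at 0.567%, and the 3 lines meet towards the edges.

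The contrast held in every class of region examined. Among regions of 107 to 380 bp, 64.1% of those with TGACTCA or TGAGTCA were higher, against 12.9% of those without, and in those of 882 to 12667 bp the shares were 24.3% and 10.7%. In promoter regions they were 44% and 13.0%, and outside them 50.9% and 10.7%. Among regions with a mean log2 CPM under 0.12, 7.12% and 1.83% were called higher. On each of the 19 autosomes the median log2 fold change was higher with a match than without, by 0.49 on chromosome 11 at the least and 1.09 on chromosome 13 at the most.

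Each D2-13B6 library showed the AP-1 pattern, to different degrees. Relative to the mean of the D2 libraries, the median log2 CPM of regions with TGANTCA exceeded that of regions without it by 0.52, 0.73 and 0.42 in D2-13B6 replicates 1, 2 and 3. The D2 libraries were at -0.05, 0.05 and -0.00. The groups did not overlap, with the D2-13B6 libraries above all D2 libraries and replicate 2 highest. The difference of means was 0.55, and the two-sided exact permutation p was 0.1, the smallest that 3 against 3 libraries allow (0.22 adjusted over 22 motifs). This difference is taken within a library and does not move with its scaling. On the same scale, the B6 libraries were at -0.39 to -0.37 and the B6-13D2 libraries at -0.38 and -0.38, so that the line with the B6 interval on the D2 background lay on the far side of D2 from both lines on the B6 background.

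The other motifs differed by fewer percentage points, and several had the larger share in lower regions, those of stem cell factors and of other factors alike. NFY's CCAATCA was in 3.76% of higher, 5.82% of lower and 5.78% of all regions. ZFP57's TGCCGC was in 4.43%, 6.06% and 5.85%. The POU octamer ATTTGCAT was in 1.72% of higher, 3.96% of lower and 3.24% of all regions. ESRRB's TCAAGGTCA was in 0.568%, 1.60% and 1.38%, and TCF/LEF's ATCAAAG in 4.23%, 7.08% and 5.26%. The shares of TEAD's ACATTCC, a site of the Hippo pathway's factors, were 8.61%, 6.96% and 6.67%. For the octamer, the with-minus-without value was -0.11, -0.19 and -0.08 in the D2-13B6 libraries and -0.03, -0.04 and 0.08 in the D2 libraries, again without overlap (exact permutation p = 0.1, adjusted 0.22). The libraries of both lines did not overlap for NFY either, nor for YY1, described below (exact permutation p = 0.1, adjusted 0.22 for each). The CTCF motif, an insulator site, had a larger ratio between higher and lower regions than AP-1 and was rare in lower regions, at 0.369% against 2.89% of higher and 2.24% of all regions. Its value varied between libraries, at 0.21, 0.53 and 0.08 in D2-13B6 and 0.01, 0.09 and -0.11 in D2, so that the groups overlapped (exact permutation p = 0.2).

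**Figure D2:**
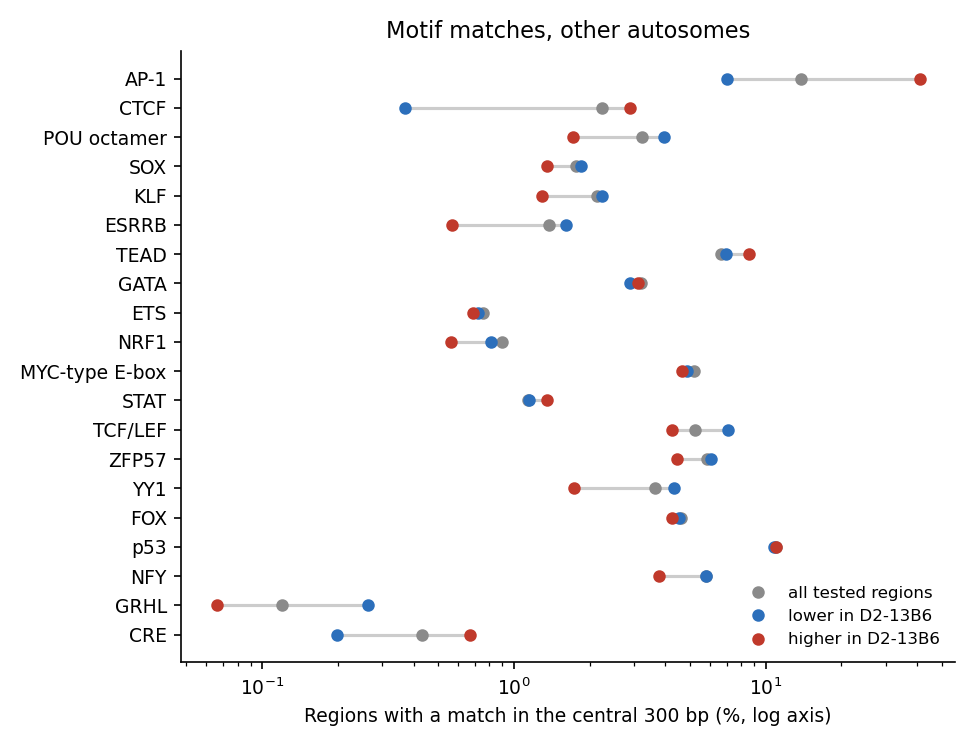
Share of regions (percent, log axis) with a match to each of 20 motifs in the central 300 bp, for regions higher in D2-13B6 (red), lower in D2-13B6 (blue) and all tested regions of the other autosomes (grey). AP-1 spans from 7.05% of lower to 40.9% of higher regions. The POU octamer and ESRRB are more frequent in lower than in higher regions, as are NFY and ZFP57 among others. Matches of p53 are at 10.96% of higher and 10.79% of lower regions.

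YY1's AAGATGGC, a site of a zinc finger factor found at promoters and in repeats, stood out in the large losses. It was in 3.65% of all and 4.32% of lower regions but in 12.9% of the 2200 regions that were at least 2-fold lower. These 284 regions lay on all 17 chromosomes, and the median share of soft-masked sequence in them was 98.5%, against 46.8% over all 2200 and 57.7% over all regions with the motif.

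The 6 regions named among those higher on the other autosomes were intronic or intergenic. The region in an intron of Dock3 (ENSMUSG00000039716.12), a gene for an activator of Rac, lies on chromosome 9 from 106934964 to 106935448. It had 4.33, 3.24 and 3.90 normalised CPM in the D2 libraries and 11.9, 15.4 and 10.3 in the D2-13B6 libraries, a log2 fold change of 1.71 (SE 0.18, edgeR adjusted p = 2.39e-10). That the libraries of both lines did not overlap was required of every region named by rank. B6 and B6-13D2 were lower than D2, at means of 1.58 and 1.48. In an intron of Mbnl2 (ENSMUSG00000022139.17), which encodes a muscleblind splicing regulator, on chromosome 14 from 120292609 to 120293297, the values were 5.34, 6.24 and 5.36 in D2 and 15.2, 20.8 and 15.6 in D2-13B6 (log2 fold change 1.61, SE 0.17). An intronic region of Zhx2 (ENSMUSG00000071757.10), a zinc finger and homeobox repressor gene, on chromosome 15 from 57749329 to 57749987, had 5.16, 5.41 and 4.13 in D2 and 13.4, 21.5 and 12.5 in D2-13B6 (log2 fold change 1.69, SE 0.18). These are the regions whose sequences were shown first. In all 3 regions D2-13B6 replicate 2 was the highest.

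The remaining higher regions named by rank had no TGACTCA match in the window. An intronic region of Poln (ENSMUSG00000045102.12), which encodes DNA polymerase nu, on chromosome 5 from 34075141 to 34075725, rose from 4.93, 5.73 and 4.67 to 15.6, 20.6 and 15.8 (log2 fold change 1.76, SE 0.17). A region in an intron of Asap1 (ENSMUSG00000022377.16), for an Arf GTPase-activating protein, on chromosome 15 from 64363878 to 64364781, rose from 5.94, 7.60 and 6.70 to 17.2, 26.6 and 19.98 (log2 fold change 1.66, SE 0.17). In both, B6 and B6-13D2 stayed under the D2 libraries. A region between genes on chromosome 10 (81978647 to 81978885), whose nearest start site is that of Gm8158 at 7517 bp, differed in kind. It had 0.0259, 0.107 and 0.0573 in D2, with at most 4 counts in a library, and 0.987, 2.24 and 1.44 in D2-13B6, where B6 had 1.46 to 3.02. Among all 6 it was the one region in which B6 lay above D2.

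Most of the 6 named regions lower in D2-13B6 were wide and partly repetitive. Between genes on chromosome 9 (19092507 to 19094146), at 26236 bp from the olfactory receptor gene Olfr836, a region had 19.8, 17.0 and 20.3 normalised CPM in D2 and 4.55, 5.42 and 3.96 in D2-13B6 (edgeR log2 fold change -2.03, SE 0.17, adjusted p = 4.45e-14). Near Sult3a2, a sulfotransferase gene, the region on chromosome 10 from 33795809 to 33798203 had 11.9, 11.6 and 17.5 in D2 and 3.38, 3.00 and 3.78 in D2-13B6 (log2 fold change -2.01, SE 0.18). A region over a coding exon of Dnah7c (ENSMUSG00000101337.6), an axonemal dynein gene, on chromosome 1 from 46649156 to 46651256, had 16.0, 12.6 and 17.6 in D2 and 4.94, 4.73 and 2.89 in D2-13B6 (log2 fold change -1.87, SE 0.18). In these regions D2 was the line that stood apart, since B6 and B6-13D2 were at 2.87 to 5.43, close to D2-13B6.

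The other 3 behaved less uniformly. In Arhgap10 (ENSMUSG00000037148.8), which encodes a GTPase-activating protein, the intronic region on chromosome 8 from 77448954 to 77449240 had 8.28, 7.58 and 6.07 in D2, 1.25, 1.94 and 1.62 in D2-13B6 and at most 0.832 in B6 (log2 fold change -2.20, SE 0.21). In Stat4 (ENSMUSG00000062939.11), a transcription factor gene of cytokine signalling, the intronic region on chromosome 1 from 52046676 to 52047394 had 15.5, 10.2 and 12.4 in D2 and 3.07, 4.06 and 3.10 in D2-13B6, below the 4.82 to 6.65 of B6. Hydin (ENSMUSG00000059854.8), which encodes a protein of motile cilia, had a region over coding exons on chromosome 8 from 110518695 to 110524102 with 40.3, 38.0 and 38.8 in D2 and 12.6, 10.4 and 12.8 in D2-13B6. Here B6, at 27.1 to 27.8, and B6-13D2, at 39.8 and 42.8, were far above D2-13B6. Soft-masked sequence covered 70.8% of the Stat4 region and 0% of the Arhgap10 region.

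Promoter regions of protein-coding genes changed by less. Of 14479 on the other autosomes, 2240 were higher (15.5%) and 728 lower (5.03%), with a median log2 fold change of 0.19, and 0 changed at least 4-fold. These are a single region per gene, that with the highest level. The regions named next were ranked among all regions within 1000 bp of such a start site, so they can be lesser ones. The 8 higher with the smallest p were at Appl2, Acta2, Tnrc6b, Fez2, Exoc6b, Glis3, Cytip and Med15. Their log2 fold changes were 1.396 to 1.74, and 4 of them held TGACTCA or TGAGTCA in the window. Appl2, which encodes an endosomal adaptor, was at 4.07, 4.79 and 3.84 normalised CPM in D2 and 12.1, 14.3 and 10.01 in D2-13B6 (edgeR log2 fold change 1.52, SE 0.18, adjusted p = 4.31e-09). Glis3, a zinc finger transcription factor gene, was at 5.97, 7.12 and 6.62 in D2 and 14.1, 22.1 and 15.7 in D2-13B6 (log2 fold change 1.396, SE 0.17). Tnrc6b, which acts in silencing by microRNAs, had a log2 fold change of 1.74 (SE 0.21), and Med15, a Mediator subunit gene, of 1.398 (SE 0.18). All 8 had their D2-13B6 libraries above every D2 library, as the rule for naming required.

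The 8 lower regions of the same ranking were at start sites of Ube2l6, Pot1a, Akap9, Ninl, Rpl10l, Zfp977, Slc26a9 and Rnf2. Their log2 fold changes were -1.25 to -1.04, and none held TGACTCA or TGAGTCA. Ube2l6, the conjugating enzyme of the ubiquitin-like ISG15, had 68.0, 56.5 and 66.4 in D2 and 26.3, 27.9 and 25.9 in D2-13B6 (edgeR log2 fold change -1.25, SE 0.17, adjusted p = 2.92e-08). Pot1a, which protects telomeres, had 13.4, 13.3 and 17.9 in D2 and 6.83, 6.97 and 5.26 in D2-13B6 (log2 fold change -1.22, SE 0.17). A region at an annotated start site of Rnf2, the catalytic subunit of polycomb repressive complex 1, had 4.15, 4.20 and 5.87 in D2 and 2.18, 1.97 and 1.82 in D2-13B6 (log2 fold change -1.24, SE 0.20). It was not the Rnf2 promoter region with the highest level, which was not called. In the shown regions of these 3 genes the B6 and B6-13D2 libraries were above the D2-13B6 libraries.

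Promoters of pluripotency genes were lower in D2-13B6. Of 19 genes of the core and naive pluripotency list with a promoter region on the other autosomes, 12 were lower and 0 higher at adjusted p under 0.05 by edgeR, where 5.03% and 15.5% of all promoter regions were. Their median log2 fold change was -0.51, against 0.19 for all promoter regions. The 12 were Esrrb, Zfp42, Tfcp2l1, Nanog, Pou5f1, Nr5a2, Tdh, Tcl1, Dppa5a, Sox2, Sall4 and Utf1. Esrrb, a nuclear receptor gene of the naive network, had 55.5, 48.9 and 44.7 normalised CPM in D2 and 26.4, 27.7 and 28.9 in D2-13B6 (edgeR log2 fold change -0.85, SE 0.17, adjusted p = 4.36e-05). Zfp42, the marker Rex1, had 17.2, 15.3 and 20.2 in D2 and 11.1, 11.1 and 8.08 in D2-13B6 (log2 fold change -0.80, SE 0.17). For Nanog the values were 21.5, 17.6 and 19.8 in D2 and 11.9, 12.5 and 11.4 in D2-13B6 (log2 fold change -0.72, SE 0.16). Tfcp2l1, a target of LIF signalling, had a log2 fold change of -0.73 (SE 0.16). In each of these 4 genes no D2-13B6 library reached a D2 library.

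Regions around these genes were also lower more often, though some were higher. Of 353 regions 1 to 100 kb from their start sites, 70 were lower (19.8%) and 15 higher (4.25%), where 8.23% and 15.4% of all such regions were. The Klf5 region whose sequence was shown, intergenic and 39467 bp from the gene's start site, had 14.7, 15.2 and 22.1 in D2 and 10.7, 11.5 and 9.73 in D2-13B6 (edgeR log2 fold change -0.70, SE 0.17, adjusted p = 9.35e-04). The Sox2 region, in an intron of Sox2ot and 17462 bp from the Sox2 start site, had 6.93, 6.05 and 7.76 in D2 and 4.62, 5.82 and 3.99 in D2-13B6 (edgeR log2 fold change -0.52, SE 0.18, adjusted p = 0.0233). Both were picked because they hold the octamer, so their motif is no result. The 15 higher regions included another near Klf5, 74560 bp from its start site, with a log2 fold change of 1.32 (SE 0.21, edgeR adjusted p = 6.49e-07). Others lay near Klf4 (log2 fold change 1.18, SE 0.19) and Dppa3 (1.34, SE 0.20). Each of these had a smaller p than both octamer regions. At an unadjusted p under 0.05, 13 promoters of the list were lower and 3 higher. With the size factors of DESeq2 in edgeR the counts were 8 lower and 2 higher, with the DESeq2 test 11 and 3, with total counts 15 and 0, and without D2-13B6 replicate 3 they were 12 and 4.

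Promoters of fibroblast genes were higher in D2-13B6. The list holds markers of feeder fibroblasts, a cell type that stem cell cultures can contain. Of its 18 genes, 16 had a tested promoter region (all but Col3a1 and Lum), 15 of them on the other autosomes, and 12 of these were higher and 0 lower, also at an unadjusted p under 0.05 and by DESeq2. Acta2, smooth muscle actin, had 8.12, 9.40 and 7.59 normalised CPM in D2 and 17.9, 30.0 and 20.4 in D2-13B6 (edgeR log2 fold change 1.44, SE 0.17, adjusted p = 4.82e-09). Dcn, which encodes the matrix proteoglycan decorin, had 2.59, 2.68 and 2.69 in D2 and 5.25, 7.94 and 5.23 in D2-13B6 (log2 fold change 1.21, SE 0.20). S100a4 and the collagen gene Col6a1 had log2 fold changes of 1.11 (SE 0.18) and 1.09 (SE 0.20). Of 195 regions 1 to 100 kb from these genes, 74 were higher (37.9%) and 10 lower (5.13%), against 15.4% and 8.23% of all such regions. Of all promoter regions, 15.5% were higher and 5.03% lower.

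Summed over the list's promoter regions on all chromosomes, the level was 259 to 272 normalised CPM in the D2 libraries and 347 to 505 in the D2-13B6 libraries, without overlap. The same sum over the pluripotency list was 698 to 763 in D2 and 561 to 722 in D2-13B6. No promoter region of the fibroblast list was at 0 in a D2 library, and the lowest, that of Postn, had 0.571 to 1.10 there. These shifts lay between the same lines as the AP-1 pattern and the changes of the groups below. Their part in those results was not tested. Nor can a change in the mix of cells be told apart from a change within the cells in such bulk libraries.

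Genes for AP-1 subunits, a list added after the motif had been seen, also had more open promoters. Of 13 on the other autosomes, 9 were higher and 0 lower, where 15.5% and 5.03% of all promoter regions were. Their median log2 fold change was 0.46, against 0.19 for all promoter regions and 0.33 for housekeeping genes. Fosl2 had 45.9, 41.2 and 41.5 normalised CPM in D2 and 75.1, 93.9 and 59.3 in D2-13B6 (edgeR log2 fold change 0.83, SE 0.17, adjusted p = 9.3e-05), and Fos had 41.6, 40.0 and 40.8 in D2 and 68.0, 85.2 and 57.1 in D2-13B6 (log2 fold change 0.78, SE 0.17). Fosb and Junb had log2 fold changes of 0.62 each. The number of higher promoters was 6 with total counts, 11 by DESeq2, 3 with only the D2 and D2-13B6 libraries, 0 with a minimum fold of 1.5, and 4 without D2-13B6 replicate 2, without D2 replicate 2 or without D2 replicate 3. Among 16 targets of FGF and MEK signalling, the pathway inhibited in the medium, 5 were higher (Fos, Ier3, Fosl1, Dusp4 and Egr2) and 0 lower, against the same shares of all promoter regions. The median log2 fold change of these targets was 0.37, near the 0.33 of housekeeping genes, of which 3 of 12 were higher. With loess offsets these medians were 0.14 and 0.06. For these targets the number higher was 2 with total counts, with only the D2 and D2-13B6 libraries, or without D2-13B6 replicate 2, D2 replicate 2 or D2 replicate 3. It was 3 without D2 replicate 1, 0 with a minimum fold of 1.5, 11 by DESeq2 and 13 without D2-13B6 replicate 3. Ier3, an immediate early gene, had 38.3, 37.9 and 40.3 in D2 and 57.5, 71.9 and 51.2 in D2-13B6 (log2 fold change 0.63, SE 0.16). Dusp4, a MAP kinase phosphatase, had a log2 fold change of 0.45 (SE 0.17).

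Lineage genes did not move together. Of 13 primitive streak and mesoderm promoters 5 were lower and 0 higher. Cdx1 and Cdx2, caudal homeobox genes, had log2 fold changes of -0.86 (SE 0.16) and -0.69 (SE 0.17), followed by Evx1 at -0.50 (SE 0.16) and Nodal at -0.49 (SE 0.16). In the primitive endoderm list of 12, Dab2 (0.87, SE 0.17), Gata6 and Pdgfra were higher, whereas Sox17 (log2 fold change -0.67, SE 0.17) was lower. The neuroectoderm list had 2 of 15 higher (Irx3 at 0.67 and Sox11 at 0.42, log2) and 0 lower, with Neurog1 on chromosome 13 lower, and the trophoblast list 0 of 12 higher and 1 lower, which was Cdx2. Of 12 formative state promoters 1 was lower, that of Zic2 (log2 fold change -0.51, SE 0.17), and of 7 two-cell-like promoters 0 were called by edgeR or DESeq2, with 1 at an unadjusted p under 0.05. With total counts, 8 neuroectoderm, 9 primitive streak and 4 trophoblast promoters were lower. Leaving out D2 replicate 1 left 2 lower primitive streak promoters, leaving out D2-13B6 replicate 1 left 3, and the primitive endoderm list had 1 higher without any one D2 library or without D2-13B6 replicate 2. Each of these shares is read against 15.5% higher and 5.03% lower among all promoter regions.

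Chromatin and signalling genes showed single changes. Lmna, which encodes the lamins of differentiated cells, had 49.1, 54.9 and 43.1 normalised CPM in D2 and 79.2, 122 and 80.4 in D2-13B6 (edgeR log2 fold change 0.94, SE 0.17, adjusted p = 1.73e-05). With Nipbl, the cohesin loader, it made 2 higher of 22 genes of chromosome architecture, and without D2-13B6 replicate 3 the number was 12. Tet1, which oxidises methylated cytosine in stem cells, was lower (log2 fold change -0.58, SE 0.16), and Tdg and Tet3, of the same demethylation route, were higher at 0.66 (SE 0.17) and 0.54 (SE 0.17). Of 25 imprinted promoters 5 were lower and 1 higher. Without D2 replicate 1 the number lower was 1, without D2 replicate 3 or D2-13B6 replicate 1 it was 3, and without D2-13B6 replicate 3 the number higher was 5. The lower ones were Snrpn (log2 fold change -0.85, SE 0.17), Nespas, Gnas, Mkrn3 and Magel2, and the higher one was Inpp5f, whose libraries overlapped between the lines. Of 13 LIF and STAT3 promoters 2 were higher, of Cish and Junb, and Tfcp2l1 was lower. Without D2-13B6 replicate 3 the number higher was 6. Of all promoter regions, 15.5% were higher and 5.03% lower. With all libraries, higher calls were therefore no more frequent in the architecture and LIF lists than among all.

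The remaining lists had few calls with all libraries, but more without D2-13B6 replicate 3, where 11 p53 targets, 9 Hox genes, 9 KRAB corepressor and H3K9 methylation genes and 7 polycomb genes were higher. Of 16 p53 targets 2 were higher (Fas and Cdkn1a), of 28 Hox genes 3 (Hoxc6 and Hoxa7 among them), of 20 genes for KRAB zinc finger corepressors and H3K9 methylation 1 (Atf7ip), and 0 of these lists were lower. Of 19 polycomb genes Mtf2 was lower, and of 11 WNT targets Tcf7l2 was higher and Cdx1 lower. Among 12 housekeeping promoters, 3 were higher (B2m and Rplp0 among them) and 0 lower, with a median log2 fold change of 0.33. With total counts that median was 0.14, and without D2-13B6 replicate 3 the number higher was 8. These counts are read against 15.5% higher and 5.03% lower among all promoter regions. With all libraries, higher calls in the p53, Hox and KRAB corepressor lists were no more frequent than that.

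**Figure D3:**
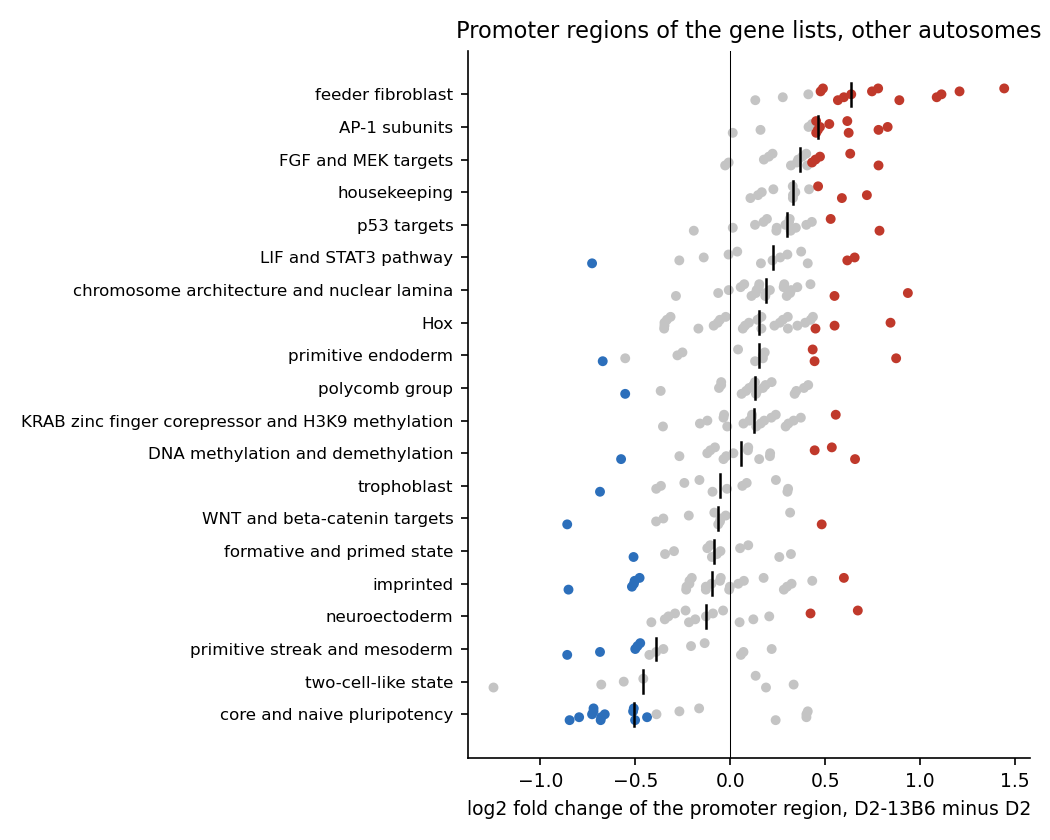
Log2 fold change (D2-13B6 minus D2) of the promoter region of each gene of 20 lists, on the other autosomes. Points are genes, red if higher and blue if lower at an edgeR adjusted p under 0.05 and grey otherwise, and black bars are medians. The core and naive pluripotency list has its median at -0.51 with 12 blue points, and the feeder fibroblast list its median at 0.64 with 12 red points.

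Chromosomes 11 and 13 were shifted as wholes, in opposite directions. Relative to the other autosomes and to the D2 mean, the median log2 CPM of chromosome 11 was 0.30, 0.30 and 0.29 in the D2-13B6 libraries and 0.02, 0.05 and -0.07 in the D2 libraries. That of chromosome 13 was -0.35, -0.29 and -0.28 in D2-13B6 and -0.00, -0.01 and 0.01 in D2. Neither chromosome's groups overlapped. The two-sided exact permutation p was 0.1 for each, the smallest 3 against 3 libraries allow (0.167 adjusted over 10 tests). Both chromosomes had been set apart because of this shift in the same libraries, so neither result is independent support for it. The 17 other autosomes had median log2 fold changes of -0.08 (chromosome 1) to 0.00 (chromosome 19). On chromosome 11, 3558 regions were higher (22.7%) and 101 lower (0.646%). On chromosome 13, 1565 were higher (13.2%) and 3138 lower (26.4%), so that 23.4% and 39.6% of the regions of both chromosomes were called. With the shift of each chromosome taken out as an offset, the calls in either direction were 2393 instead of 3659 on chromosome 11 and 3632 instead of 4703 on chromosome 13.

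**Figure D4:**
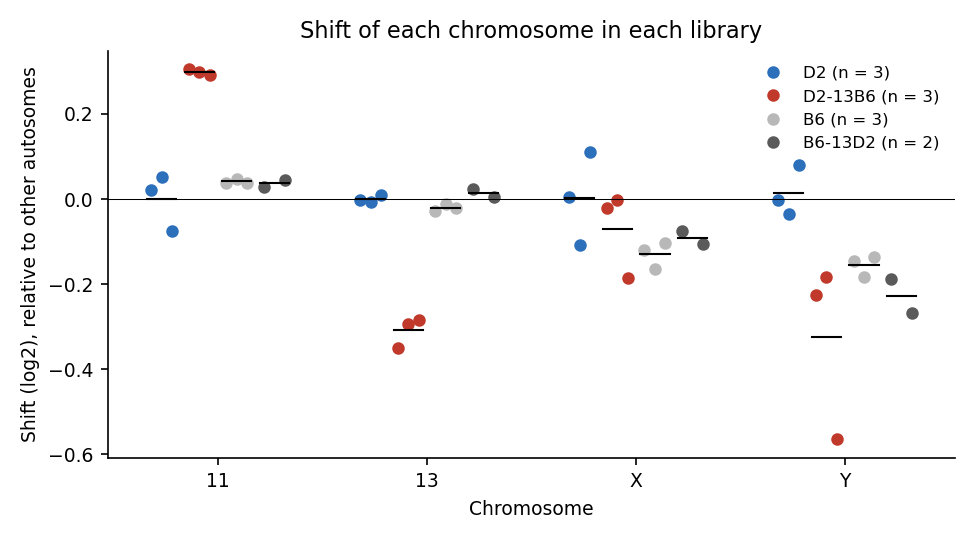
Median log2 CPM of each library on chromosomes 11, 13, X and Y relative to the D2 mean and to the other autosomes. Points are libraries and black bars are group means. The D2-13B6 libraries lie at 0.29 to 0.30 on chromosome 11 and at -0.35 to -0.28 on chromosome 13, apart from all other libraries on both.

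Chromosome 11 was raised along its length. In steps of 5 Mb, the median log2 fold change ran from 0.14 to 0.34 in all 25 steps. On chromosome 13 it ran from -0.57 to -0.19 in 24 of 25 steps and was -0.70 between 65 and 70 Mb. On the sex chromosomes 562 regions were higher (8.05%) and 730 lower (10.5%). The shift of chromosome Y was -0.23, -0.18 and -0.56 in the D2-13B6 libraries and -0.00, -0.04 and 0.08 in the D2 libraries, without overlap (exact permutation p = 0.1, adjusted 0.167).

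Within chromosome 13, most losses of at least 4-fold lay between 65 and 67 Mb, while smaller losses were spread along the chromosome. Between 65 and 66 Mb, 111 of 150 regions were lower (74%), 78 of them at least 4-fold, with a median log2 fold change of -2.08. Between 66 and 67 Mb, 102 of 173 were lower (59.0%), 72 at least 4-fold, with a median of -1.40. In these steps the reciprocal pair, B6 minus B6-13D2, moved the same way, with medians of -1.15 and -0.62. The other steps in which over 50% of regions were lower were 61 to 62 Mb (68.3% of 63, median -0.97) and 62 to 63 Mb (51.2% of 129, median -0.79). There the reciprocal medians were -0.08 and -0.16, and 2 and 1 regions were called in the reciprocal pair, where 2.09% of the chromosome was. Over the whole chromosome, 171 regions were at least 4-fold lower (1.44%) and 17 at least 4-fold higher (0.143%).

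**Figure D5:**
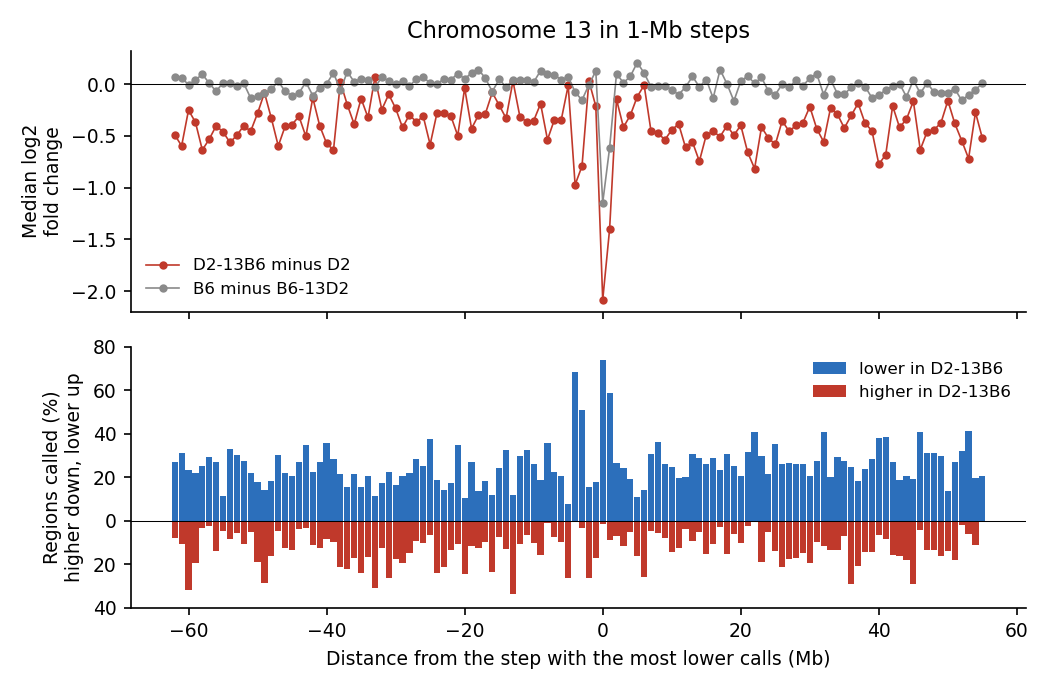
Chromosome 13 in steps of 1 Mb, by distance in Mb from the step with the most lower calls. The upper panel plots the median log2 fold change of D2-13B6 minus D2 (red) and of B6 minus B6-13D2 (grey), and the lower panel the share of regions called lower (blue, upward) and higher (red, downward) in D2-13B6. The red line falls to -2.08 at distance 0 and the grey line to -1.15, and 4 Mb before it the red line is at -0.97 with the grey line at -0.08.

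The chromosome 13 regions named by rank were of both kinds. Near Btn2a2, a butyrophilin gene, the intergenic region from 23497618 to 23499205 had 2.23, 2.89 and 2.64 normalised CPM in D2 and 6.96, 11.03 and 7.33 in D2-13B6 (log2 fold change 1.71 with SE 0.19), and both lines on the B6 background were higher than D2-13B6 on average. An intronic region of Gm34471 from 113550844 to 113551517 had 6.33, 9.69 and 7.36 in D2 and 19.3, 29.4 and 21.2 in D2-13B6 (log2 fold change 1.58, SE 0.17). A pair of higher regions was also higher in B6 than in B6-13D2, in an intron of Golm1 (log2 fold change 2.25, SE 0.18, here and 4.88, SE 0.27, for B6 minus B6-13D2) and near Gm48414 (log2 fold change 3.71, SE 0.37, at most 5 counts in a D2 library). The region with the largest loss, near Gm48220, was lower in both comparisons, at -6.56 (SE 0.24) and -5.59 (SE 0.23). The submitters name mm10, a B6 sequence, as the build. How differences in sequence between B6 and D2 DNA affect such counts was not tested.

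Other losses on chromosome 13 were not called between B6 and B6-13D2. A region over a coding exon of Cmya5, a muscle gene, from 93096391 to 93097405, had 32.9, 25.5 and 29.8 in D2 and 7.95, 11.3 and 7.05 in D2-13B6 (log2 fold change -1.75, SE 0.17), whereas B6 and B6-13D2 were both at 2.64 to 3.15. In the Gm49357 region from 61717962 to 61719061 the values were 7.45, 6.37 and 7.51 in D2 and 1.27, 1.85 and 1.75 in D2-13B6 (log2 fold change -2.14, SE 0.21). Near Gm23012, from 75685035 to 75686548, they were 11.4, 9.24 and 13.0 in D2 and 3.17, 2.94 and 3.03 in D2-13B6 (log2 fold change -1.87, SE 0.18). On chromosome 11, intronic regions of Vmp1, an autophagy gene, and Nlk, a MAP kinase-like gene, were higher (log2 fold changes 1.77, SE 0.18, and 1.74, SE 0.20), and regions near Gm12033 and Vdac1 were lower (-0.96, SE 0.18, and -0.999, SE 0.20).

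The pair of lines on the B6 background, whose interval is labelled with other markers, had far fewer calls. In B6 minus B6-13D2, 850 of the 212338 regions on the other autosomes were called (0.4%), against 48937 (23%) here. These libraries were shallower, at 15198496 to 27293140 counts. The 305 regions called in both are 35.9% of the first and 0.623% of the second, with one sign shared by 285. The difference between the lines was not the same in both pairs, by the interaction, in 13418 regions (6.32%) on the other autosomes, and in 6.05% of regions on chromosome 11, 12.7% on chromosome 13 and 3.87% on the sex chromosomes. Because the intervals carry other labels and each genotype is 1 line, this is a difference between pairs of lines. Of these regions, 9659 had the larger value in D2-13B6 minus D2, 41.5% with TGACTCA or TGAGTCA, and 3759 the smaller, 3.22% with it, where all regions had 10.1%. The interaction contains D2-13B6 minus D2, and 12100 of the 13418 regions were called there but not in the B6 pair. Their AP-1 shares are therefore no result separate from that of the calls. Over all chromosomes the interaction was called in 16142 regions (6.54%), but in 8229 without D2 replicate 1 and 29017 without D2-13B6 replicate 3. The AP-1 regions of Dock3, Mbnl2 and Zhx2 each differed between the pairs, by 1.60 (SE 0.34), 1.68 (SE 0.29) and 1.54 (SE 0.31) on the log2 scale. They were named for their difference between D2-13B6 and D2, which this contrast contains, so large values follow in part from that choice.

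Along the other autosomes, gains and losses were spread over all chromosomes with local peaks. Of 2143 steps of 1 Mb with at least 20 regions, the median step had 13.4% of regions higher and 7.5% lower. The largest share of higher regions was 54% of 50 regions on chromosome 4 between 64 and 65 Mb, near Pappa and Tnc, a protease and a matrix protein gene of mesenchymal cells. It was followed by 47.9% of 48 on chromosome 12 between 9 and 10 Mb, near Osr1, and 46.8% of 47 between 95 and 96 Mb, near Flrt2. The largest share of lower regions was 59.3% of 27 on chromosome 2 between 175 and 176 Mb. Next came 33.3% of 30 on chromosome 1 between 141 and 142 Mb, near the potassium channel gene Kcnt2, and 29.0% of 93 on chromosome 2 between 177 and 178 Mb, near the zinc finger genes Zfp970 and Zfp972. In the steps poorest in GC, with 34.9% to 39.0% GC, 9.82% of regions were higher and 9.81% lower.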

How the data were processed

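Chromatin accessibility was measured by FAST-ATAC on 100000 cells per library with 150-bp reads, per the labels' protocols. The deposited table holds read counts per region, made by the authors, with 1 column per library whose name says that duplicates and mitochondrial reads had been removed. The submitters' processing notes name mm10, Trimmomatic 0.39, BWA 0.7.5, Picard 2.0.1, MACS 1.4.2, bedtools 2.9.2 and edgeR 3.34.1. Whether reads were shifted for the transposase, and whether peaks were called on pooled libraries, is not given in the sources used here.

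Counts of all 11 libraries were fitted together in edgeR 4.0.16 (R 4.3.3) with TMM factors, filterByExpr by group and a robust quasi-likelihood fit. The filter left out 1496 regions. P-values were adjusted by Benjamini-Hochberg over all 246840 tested regions. Log2 CPM used a prior count of 2. Regions were annotated with GENCODE M21 and GRCm38.p6 sequence, and no region ran past a chromosome end of that build. Named regions were the calls with the smallest p whose libraries did not overlap between the lines, at least 1 Mb apart: 6 per direction on other autosomes, 4 on chromosome 13, 2 on chromosome 11 and 8 promoter regions, where predicted genes were passed over. For gene lists, the promoter region was the one with the highest mean level within 1000 bp of a start site, and the named members are mainly those with the smallest p. Others are named to list every call. The Klf5 and Sox2 regions were chosen after their values were seen.

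The comparison, members, lists and motifs were chosen with earlier results of these data known. The AP-1 subunit list, the motifs AP-1 with C or G, AP-1 with A or T, and CRE, and the alternatives for the AP-1 share and for the pluripotency and fibroblast counts were added after seeing the data. Libraries with the same number in both lines deviated with correlations of -0.022, 0.057 and -0.038, so the numbers were not taken as pairs. The fit was also run on simulated data with known changes in few regions, equally often up and down. Calls here were far more frequent and uneven in direction, so that run cannot speak to the choice of scaling. Alternatives were DESeq2 1.42.0, other scalings, no filter, only the 6 libraries, a minimum fold, a replicate block, an offset per chromosome and leaving out each library.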

Additional observations from a re-analysis of the deposited data

Results flagged for a closer look

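The difference between the lines was not the same in the D2 pair and the B6 pair, whose intervals are labelled with other markers, by the interaction in edgeR at an adjusted p under 0.05, in 13418 regions on the other autosomes, 947 on chromosome 11, 1507 on chromosome 13 and 270 on the sex chromosomes. The values below are the log2 fold change of D2-13B6 minus D2, less that of B6 minus B6-13D2. Regions and list members were named by their p for the first of these differences. Large values here therefore follow in part from that choice.

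Among higher regions the values were 1.69 for Poln, 4.49 near Gm8158, 1.46 for Asap1, 1.60 for Dock3, 1.68 for Mbnl2 and 1.54 for Zhx2. On chromosomes 11 and 13 they were 1.57 for Vmp1, 1.98 for Nlk, 1.92 near Btn2a2 and 0.99 for Gm34471. For Golm1 (-2.63) and near Gm48414 (-6.41) the B6 pair had the larger increase, and the second rests on no counts in B6-13D2, so its size is set by the prior count. Promoter regions had values of 1.78 for Appl2, 1.09 for Acta2, 1.78 for Tnrc6b, 1.12 for Fez2, 1.16 for Exoc6b, 1.46 for Glis3 and 1.78 for Cytip. In the fibroblast and AP-1 subunit lists the values were 1.38 for Col6a1, 1.02 for S100a4, 1.51 for Dcn, 0.82 for Fos and 0.88 for Fosb.

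Among lower regions the values were -2.17 near Olfr836, -1.65 near Sult3a2, -1.52 for Stat4, -1.92 for Dnah7c, -1.12 for Hydin and -2.62 for Arhgap10. On chromosome 13 they were -1.39 for Gm49357, -1.81 near Gm23012, -1.79 for Cmya5 and -0.88 for the promoter of Neurog1. Promoter regions had values of -0.91 for Ube2l6, -1.10 for Pot1a, -1.22 for Akap9, -0.87 for Ninl, -1.61 for Rpl10l, -0.88 for Zfp977, -0.80 for Slc26a9 and -1.05 for Rnf2. In the lists, Esrrb was at -0.87, Cdx1 at -0.96 and Cdx2 at -0.88.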

How the results depend on the processing

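Of the 114 regions tracked by name under the alternatives, none took the opposite direction where the main fit or the alternative called it. A change of sign without a call in either was counted as staying. With the settings counted 1 by 1, 1383 values stayed on their side of the threshold, 47 passed it and 164 lost it, of which 55 with a minimum fold of 1.5, 24 with only the D2 and D2-13B6 libraries and the others under the remaining settings, single left-out libraries among them, and 2 had no adjusted p in DESeq2. Of calls on other autosomes, the share higher in D2-13B6 was 75.27% with RLE size factors, 42.58% with total counts, 63.87% with loess offsets, 70.15% with only the 6 libraries, 75.68% by DESeq2 and 93.56% with a minimum fold of 1.5. The share of higher calls with TGANTCA was 38.8%, 46.23%, 39.78%, 42.89%, 39.14% and 58.31% in the same order. A minimum fold of 1.5 left 14064 calls on other autosomes, 1021 on chromosome 11, 1610 on chromosome 13, 0 lower pluripotency promoters, 4 higher fibroblast promoters and 975 regions whose line difference was not the same in both pairs, as a stricter test gives fewer. An offset per chromosome left 2393 calls on chromosome 11. From shares of total counts the shift was 0.210 on chromosome 11 and -0.196 on chromosome 13. The cause of the other differences was not tested.

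The replicate numbers do not pair the libraries. With a replicate block, 50727 regions were called on other autosomes, 63.86% of them higher, and the block moved no count by over 1.5 times.

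Without 1 library at a time, calls on other autosomes were 36876 to 58032 (58.33% to 71.19% higher, 35.17% to 46.8% of those with TGANTCA), on chromosome 11 2735 to 4252 and on chromosome 13 3842 to 5122. Lower pluripotency promoters were 9 to 13 and higher fibroblast promoters 9 to 13. Regions whose line difference was not the same in both pairs were 8229 (without D2 replicate 1) to 29017 (without D2-13B6 replicate 3). The shifts were 0.262 to 0.325 on chromosome 11 and -0.321 to -0.288 on chromosome 13.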

Other observations

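Regions 1 to 100 kb from genes of the formative and primed list were lower in 31 of 184 cases (16.8%) and higher in 14 (7.61%), against 8.23% and 15.4% of all such regions, and the difference was not tested. Near p53 targets, 46 of 194 regions were higher (23.7%) and 13 lower (6.70%), against the same shares of all. Among the calls between B6 and B6-13D2 on the other autosomes, 11.6% held the YY1 motif and 7.18% held TGANTCA, against 3.65% and 13.8% of all tested regions. The directions differed. YY1 was in 13.7% of the regions higher in B6 and 3.93% of those lower, and TGANTCA in 4.61% and 16.9%.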
